A study of Mus musculus with 12 samples.

Results

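Small leucine-rich proteoglycans (SLRPs) and versican are secreted components of the extracellular matrix, and 9 of their genes were followed here, of 31053 genes counted in each library. The members were Dcn (decorin), Bgn (biglycan), Aspn (asporin), Lum (lumican), Fmod (fibromodulin), Prelp, Ogn (osteoglycin), Podn (podocan) and Vcan (versican). They were chosen by name and read in 12 single-cell libraries of the stromal vascular fraction (SVF), the cells of fat that remain once floating adipocytes are removed. Epididymal (eWAT) and inguinal (iWAT) white adipose tissue gave 6 libraries each. All mice were 12-week-old males. WT-Veh mice were C57BL/6J given the methylcellulose vehicle, ob/ob-Veh mice were Lepob/Lepob given the same vehicle, and ob/ob-Rosi mice were Lepob/Lepob given 30 mg/kg of the PPARγ agonist rosiglitazone, all by gavage over 3 days, with 2 libraries per group and depot that the labels call biological replicates. Lepob is carried by every cell of the mouse, no lean mice given rosiglitazone were analysed here, and each library came from several small pieces of a depot, so the pieces sampled are part of the difference between libraries.

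SLRPs have a core of leucine-rich repeats and in most members carry chondroitin, dermatan or keratan sulfate chains. They bind collagen fibrils and set their width and spacing, and several also bind growth factors. In fat they are made mainly by fibroblasts and adipocyte progenitors and belong to the matrix that surrounds adipocytes. Versican is not a leucine-rich proteoglycan. It is a large chondroitin sulfate proteoglycan that binds hyaluronan and is also made by monocytes.

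Of the 126095 cells kept, 57613 were from eWAT and 68482 from iWAT. Adipocyte progenitor-like (APC-like) cells, named from markers that include no member, numbered 17518 in eWAT and 19526 in iWAT. A library held 20132553 to 92475986 UMIs (unique molecular identifiers, 1 per captured transcript), and the median cell had 1132 to 4961. The iWAT WT-Veh replicate 1 library stood apart. It had the lowest median depth and 299 APC-like cells, against 1694 to 6678 in the other libraries. The iWAT files held no cell above 21957 UMIs or 25% mitochondrial UMIs, whereas eWAT files did, so the depots were deposited at different stages of filtering. Kept cells of any pair of libraries shared 7 to 99 barcodes, at most 1.05% of the smaller library. The Lepob allele is a point mutation that leaves the Lep transcript in place, so a 3′ tag does not test the genotype. Lep UMIs per 100 UMIs of Adipoq, a second adipocyte transcript, were 28.0 and 42.5 in eWAT of WT-Veh, 3.96 and 16.2 in ob/ob-Veh and 240 and 390.1 in ob/ob-Rosi. In iWAT they were 20.1 and 31.6, 36.4 and 15.1, and 164 and 141, where ob/ob-Veh overlapped WT-Veh. These ratios rest on 4 to 277 Lep UMIs per library, and ob/ob-Rosi lay above both other groups in each depot, while ob/ob-Veh lay below WT-Veh without overlap in eWAT. Fat of ob/ob mice is known for abundant Lep transcript, and the eWAT ob/ob-Veh values do not show it. The LAM-like class (lipid-associated macrophages) made up 13.85% and 9.80% of kept eWAT cells in WT-Veh and 13.05% and 16.28% in ob/ob-Rosi. In ob/ob-Veh it made up 0.21% and 0.32%. Neither measure was taken as a check of the labels, which were not tested. Groups are named as the labels give them, and every direction below rests on those labels.

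Levels below are in CPM, the UMIs of a gene per 1000000 UMIs summed over the cells of a class in 1 library. They are compared within a gene and not between genes. A member was called where the edgeR quasi-likelihood test gave a Benjamini-Hochberg adjusted p of 0.05 or less, over all genes tested in that class, with a change of at least 1.1-fold. A library sum counts fewer cells of a subtype and less RNA per cell alike, and these cannot be told apart. Over all genes tested in APC-like cells the median log2 change lay between −0.02 and 0.01 in every contrast of groups or of depots. For the depot difference of the obese and rosiglitazone effects it was −0.06 and 0.05. Shares of all genes given beside counts of members are those of the edgeR fit. Counts by DESeq2, by p before adjustment or under other alternatives have no such share. They are not read as results about the members.

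Several members lie beside each other in the mouse genome (GRCm38). Dcn (chr10:97479609-97518143, plus strand) and Lum (chr10:97565128-97572703, plus strand) are 46984 bases apart. Aspn (chr13:49544443-49567565) and Ogn (chr13:49608046-49624501) share the plus strand 40480 bases apart, while Fmod (chr1:134037254-134048277, plus strand) and Prelp (chr1:133910304-133921414, minus strand) lie 115839 bases apart. Bgn (chrX:73483602-73495933, plus strand), Podn (chr4:108014791-108096445, minus strand) and Vcan (chr13:89655312-89742509, minus strand) have no such neighbour among the members. The 250 bases upstream of the RefSeq start are printed for the member that changed most widely, Bgn, and for the Aspn and Ogn pair, which moved in opposite directions in eWAT. They run 5′ to 3′ on the gene's own strand (GRCm38.p6) and are in lower case, with capitals for the GC box GGGCGG or the TATA box TATAAA on either strand.
Bgn: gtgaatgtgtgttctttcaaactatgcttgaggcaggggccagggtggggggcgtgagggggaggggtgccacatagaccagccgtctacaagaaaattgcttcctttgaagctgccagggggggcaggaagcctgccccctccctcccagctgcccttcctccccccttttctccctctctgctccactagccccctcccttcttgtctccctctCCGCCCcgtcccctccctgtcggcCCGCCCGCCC
Aspn: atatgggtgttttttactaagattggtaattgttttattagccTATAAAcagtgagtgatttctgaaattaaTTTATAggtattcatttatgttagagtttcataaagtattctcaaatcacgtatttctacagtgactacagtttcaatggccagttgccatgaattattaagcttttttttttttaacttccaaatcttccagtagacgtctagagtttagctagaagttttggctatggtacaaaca
Ogn: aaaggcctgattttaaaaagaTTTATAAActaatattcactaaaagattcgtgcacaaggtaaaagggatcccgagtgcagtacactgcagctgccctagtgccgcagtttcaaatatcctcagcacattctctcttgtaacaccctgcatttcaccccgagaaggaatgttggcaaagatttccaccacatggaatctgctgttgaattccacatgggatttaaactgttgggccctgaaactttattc
The Bgn stretch (chrX:73483351-73483600) was 64.4% G and C and held 3 GC boxes, of which those at its end overlapped, and no TATA box. In contrast, the Aspn stretch (chr13:49544193-49544442) was 30% G and C with 2 TATA boxes, and that of Ogn (chr13:49607765-49608014) was 42% with 2 overlapping TATA boxes. Across 32851 mouse promoters of the same length the median was 52.4% G and C, 32.7% held a GC box and 12.4% a TATA box. Neither the nuclear receptor half-site AGGTCA, held by 14% of promoters, nor the SMAD palindrome GTCTAGAC, held by 0.167%, was in these 3 stretches. Of the 9 members, 7 had an entry in the RefSeq promoter table. Among the others, 1 of the 2 Podn stretches held 1 half-site, those of Fmod, Prelp and Vcan held none, and the SMAD palindrome was in none of the 7 members' stretches. These matches describe letters and no binding was measured.

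The first question was which cells of the SVF held the members. APC-like cells had the highest median level in 14 of the 18 pairs of member and depot, and in the same number once each cell was thinned to 700 UMIs. Dcn, which binds collagen and TGF-β, was found in nearly all APC-like cells. Its eWAT median there, 14190 CPM, lay close to the 13250 CPM of mesothelial-like cells. Its level in APC-like cells was 9821 to 20143 CPM in eWAT and 11123 to 13530 CPM in iWAT, and 98.9% to 99.98% of eWAT APC-like cells had a Dcn UMI. Dcn UMIs were also found in 67.7% to 88% of eWAT LAM-like cells, lipid-associated macrophages that should lack the transcript. Thinned to 700 UMIs these shares were 97.1% to 99.7% and 12.7% to 44%. A low level of an abundant member outside stromal cells is therefore not read here as expression by those cells. Where such UMIs came from (free RNA, doublets or uptake) was not tested.

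**Figure D1:**
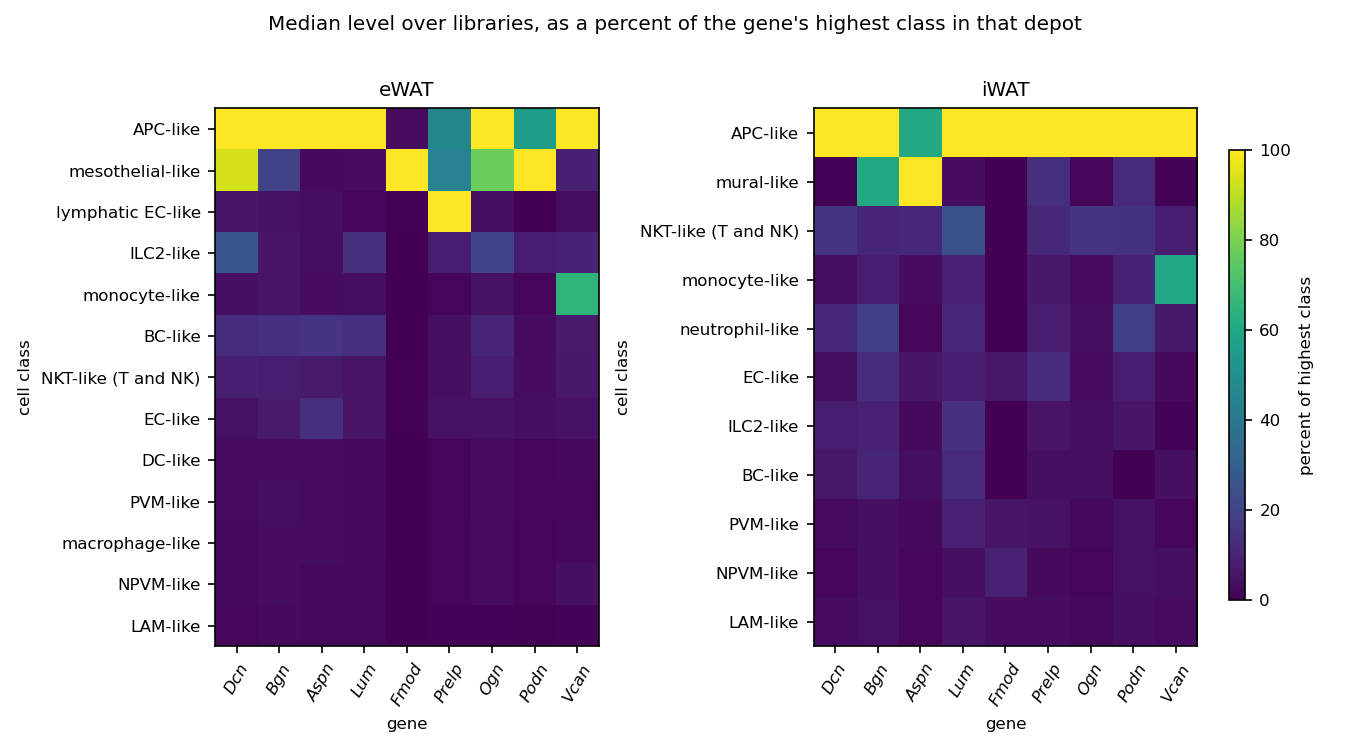
Median level over libraries of each member (columns) in each cell class with at least 20 cells in 3 or more libraries (rows), for eWAT (left) and iWAT (right). Colour gives the median as a percent of the highest class of that gene in that depot, and the classes that outrank APC-like cells are mesothelial-like for Fmod and Podn and lymphatic EC-like for Prelp in eWAT, and mural-like for Aspn in iWAT.

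The exceptions fell to a few named classes. Fmod, which binds collagen fibrils and steers their assembly, had a median of 667 CPM in eWAT mesothelial-like cells (545 to 706) against 23.3 CPM in APC-like cells (13.7 to 75.8), and the libraries did not overlap. A Fmod UMI was present in 71.1% to 90.2% of those mesothelial-like cells and in 0% to 1.74% of eWAT LAM-like cells. Podn, a regulator of smooth muscle cell growth, was at 218 CPM in the mesothelial-like class (167 to 244) and 123 CPM in APC-like cells (112 to 196), which overlapped. Mesothelial-like cells also held Dcn at 7649 to 14987 CPM, Ogn at 428 to 656 CPM and Prelp at 207 to 418 CPM, ranges that overlapped those of APC-like cells in that depot.

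Aspn, which competes with decorin for collagen and binds TGF-β, was highest in the mural-like cells of iWAT, the pericytes and smooth muscle of vessels. Its median there was 329 CPM over 4 libraries (200.3 to 464) against 198 CPM (174 to 269) in APC-like cells, and the ranges overlapped. In WT-Veh replicate 2 the mural-like level of 200.3 CPM lay below the 211 CPM of APC-like cells. The mural-like libraries were both of WT-Veh and both of ob/ob-Rosi, and those of ob/ob-Rosi held the higher levels. This iWAT cluster of 561 cells, with a median of 6695 UMIs, had all 7 EC-like markers above the rest beside 8 mural-like ones, and Cldn5 of endothelium was among its 10 leading genes. Whether it holds doublets was not tested, and an eWAT cluster of 465 cells with the same marker counts stayed unnamed. In eWAT each library held only 1 to 14 mural-like cells, too few for a level. Prelp, a basement membrane anchor, was at 173, 693 and 592 CPM in the 3 eWAT libraries with enough lymphatic EC-like cells. The first is WT-Veh replicate 1, where APC-like cells were higher at 223 CPM, and the others are those of ob/ob-Veh. Over the eWAT libraries APC-like cells held Prelp at 223 to 364 CPM. No ob/ob-Rosi library had enough lymphatic EC-like cells. Vcan was the member with a leukocyte source, at 112 to 377 CPM in eWAT monocyte-like cells and 37.8 to 504 CPM in those of iWAT. Those ranges overlapped the APC-like ranges of 166 to 405 CPM and 111 to 308 CPM. LAM-like cells of eWAT held Vcan at 1.14 to 5.31 CPM.

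Within APC-like cells the members were read by subclass in each depot. Progenitor-like cells (Pi16 and Dpp4 side) and preadipocyte-like cells (Icam1, Cd36 and Col4a1 side) were separated by reclustering, so their contrast is a description without a test. It is given as the log2 ratio of CPM with 1 CPM added to each side. In iWAT, Bgn was 12.6-fold higher in preadipocyte-like cells at the median of 6 libraries, a log2 difference of 3.65 (2.52 to 4.76). Podn was 8.44-fold higher (log2 3.08, 2.55 to 3.68) and Lum 6.46-fold (log2 2.69, 2.53 to 3.16). These 3 members were higher in 6 of 6 libraries. Fmod had a median of 2.11 and a range from −0.06 to 4.57, on 0 to 18 UMIs per library in progenitor-like cells. The 18 UMIs were those of 1 cell of ob/ob-Veh replicate 1, among 44 Fmod UMIs in all APC-like cells of that library.

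In eWAT the same 3 members leaned the same way by much less. Their median log2 differences were 0.22 for Bgn (0.01 to 0.54), 0.39 for Podn (0.12 to 1.71) and 0.14 for Lum (0.01 to 1.19), again in 6 of 6 libraries. The subclasses were not drawn alike in the depots. Another APC-like set, the Fmo2-Myoc stromal-like cells described below, had a name of its own only in iWAT. Whether these ratios differ between depots was not tested. The largest differences of Podn and Lum were those of the 2 ob/ob-Veh libraries, whose preadipocyte-like clusters held at most 1 marker of that name above the rest. Fmod was split, with a median of −0.04 and ob/ob-Veh libraries as high as 3.34. Vcan and Aspn leaned toward progenitor-like cells in both depots. Vcan had a median log2 difference of −0.78 in eWAT (lower in preadipocyte-like cells of 6 of 6 libraries) and −1.13 in iWAT (5 of 6), and Aspn of −0.45 (5 of 6) and −0.91 (6 of 6). Dcn, Prelp and Ogn differed by a median of −0.22, 0.26 and −0.57 in eWAT and 0.23, 0.32 and −0.43 in iWAT, with libraries on both sides.

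**Figure D2:**
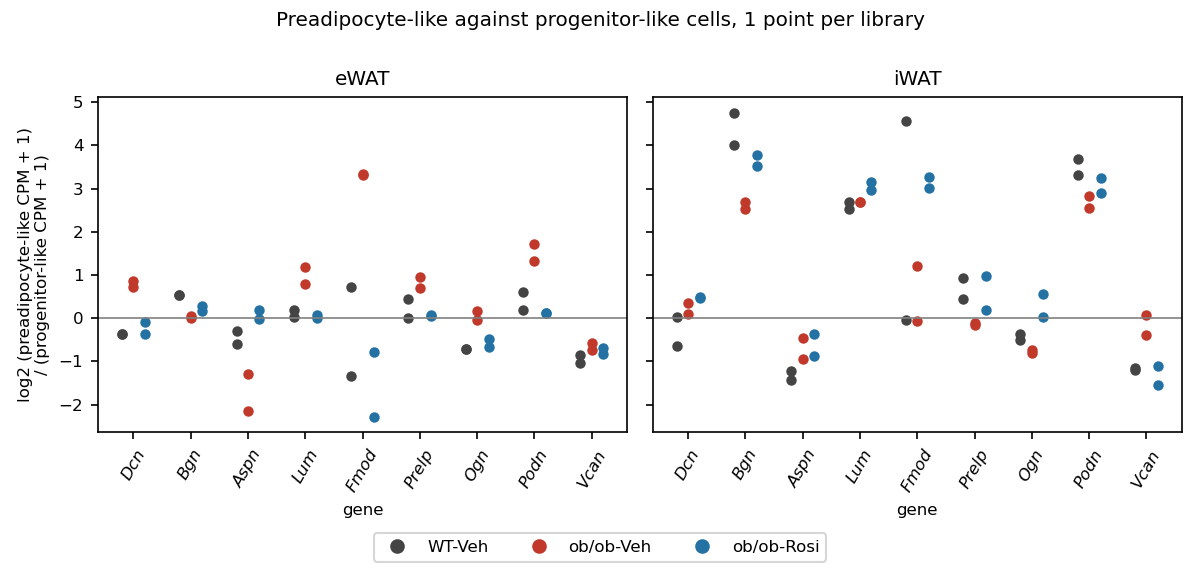
Log2 ratio of each member's CPM in preadipocyte-like over progenitor-like cells, with 1 CPM added to each, 1 point per library coloured by group, for eWAT (left) and iWAT (right). In iWAT all 6 points of Bgn, Podn and Lum lie above 2 and all 6 of Aspn below 0, while in eWAT the points of Bgn lie between 0.01 and 0.54.

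In iWAT another set of APC-like cells, the Fmo2-Myoc stromal-like cells, was rich in Bgn, Dcn and Podn. It had enough cells in 3 libraries, WT-Veh replicate 2 and both of ob/ob-Rosi, with 51 to 503 cells each, and was not tested. Its Bgn levels were 2459, 2563 and 2659 CPM in that order, above every iWAT APC-like value of Bgn. Dcn was at 18289, 19612 and 17001 CPM, Podn at 282, 325 and 249 CPM and Lum at 706, 1821 and 1351 CPM. Dcn and Podn too lay above every APC-like value of that depot. Against preadipocyte-like cells of the same library, Bgn was higher and Lum lower in each of the 3 libraries. Prelp was at 334, 454 and 268 CPM and Ogn at 949, 1030 and 796 CPM, within or near the APC-like ranges.

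The next question was how the members differed between obese and lean eWAT. In APC-like cells Bgn fell, and Lum fell with it. Bgn, a partner of collagen and a ligand of Toll-like receptors, was at 2485 and 3335 CPM in WT-Veh and 666 and 825 CPM in ob/ob-Veh. The groups did not overlap and Bgn was 4.06-fold lower (log2 −2.02 ± 0.32 SE, adjusted p = 0.00486). Lum, which binds collagen and keeps fibrils apart, was at 1576 and 1752 CPM against 769 and 829 CPM, again without overlap. It was 2.16-fold lower (log2 −1.11 ± 0.25 SE, adjusted p = 0.023). Thus 2 of 9 members were called, both lower, beside 7.42% of all genes tested.

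The Bgn call was kept under all 16 alternatives, with log2 changes from −2.14 to −1.87. The Lum call was lost without any 1 of the 4 WT-Veh and ob/ob-Veh libraries, with adjusted p of up to 0.143 and log2 changes from −1.17 to −1.04 over the alternatives. The other 7 members did not pass. Aspn was at 143 and 184 CPM in WT-Veh and 98 and 106 CPM in ob/ob-Veh (log2 −0.74, adjusted p = 0.141). Fmod was at 25.4 and 75.8 CPM against 15 and 29.7 CPM, and its groups overlapped (log2 −1.24, adjusted p = 0.127, or 0.00908 with the replicate number as a block). On the other side stood Ogn, which also binds collagen, at 682 and 925 CPM against 1450 and 1404 CPM (log2 0.79, adjusted p = 0.124). Dcn had 0.55 (adjusted p = 0.231), Vcan 0.74 (0.291), Prelp 0.17 (0.762) and Podn −0.48 (0.349). The median over the 9 members was −0.48.

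In APC-like cells of ob/ob-Rosi mice, Bgn and Lum differed from ob/ob-Veh in the opposite direction. These are other mice, and their APC-like cells were mostly in other clusters, as given below for the subclasses. Bgn rose to 2349 and 4140 CPM, 4.53-fold above ob/ob-Veh (log2 2.18 ± 0.32 SE, adjusted p = 0.00339), and Lum to 2333 and 2111 CPM, 2.86-fold (log2 1.52 ± 0.25 SE, adjusted p = 0.00562). Both calls were kept under all 16 alternatives. Aspn rose to 208 and 280.1 CPM (log2 1.31 ± 0.27 SE, adjusted p = 0.0163). In contrast, Ogn fell to 579.8 and 426 CPM, 2.77-fold lower (log2 −1.47 ± 0.28 SE, adjusted p = 0.0108). In each case the 2 treated libraries lay outside the 2 vehicle libraries.

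Rosiglitazone thus gave 4 of 9 members called, 3 higher and 1 lower, beside 8% of all genes tested. The Aspn call was lost without ob/ob-Rosi replicate 2 or either ob/ob-Veh library (adjusted p up to 0.126), and the Ogn call without ob/ob-Rosi replicate 2 or ob/ob-Veh replicate 1 (up to 0.0827). Dcn was at 13704 and 14075 CPM after treatment (log2 −0.35, adjusted p = 0.444). Vcan was at 356 and 166 CPM (log2 −0.54, adjusted p = 0.438), Fmod at 13.7 and 21.1 CPM (−0.27, 0.762), Prelp at 271 and 272 CPM (−0.15, 0.786) and Podn at 129.8 and 125 CPM (0.18, 0.74). Both contrasts use the same ob/ob-Veh libraries, so their opposite signs are not independent.

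Against WT-Veh, ob/ob-Rosi gave 0 of 9 calls in eWAT APC-like cells by edgeR and 0 by DESeq2, beside 0% of all genes. Before adjustment 2 members were lower at p under 0.05, Fmod (log2 −1.51 ± 0.45 SE) and Ogn (−0.68 ± 0.28 SE), and edgeR's adjusted p was 1 for each. Bgn differed by 0.16 ± 0.31 SE and Lum by 0.40 ± 0.25 SE.

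**Figure D3:**
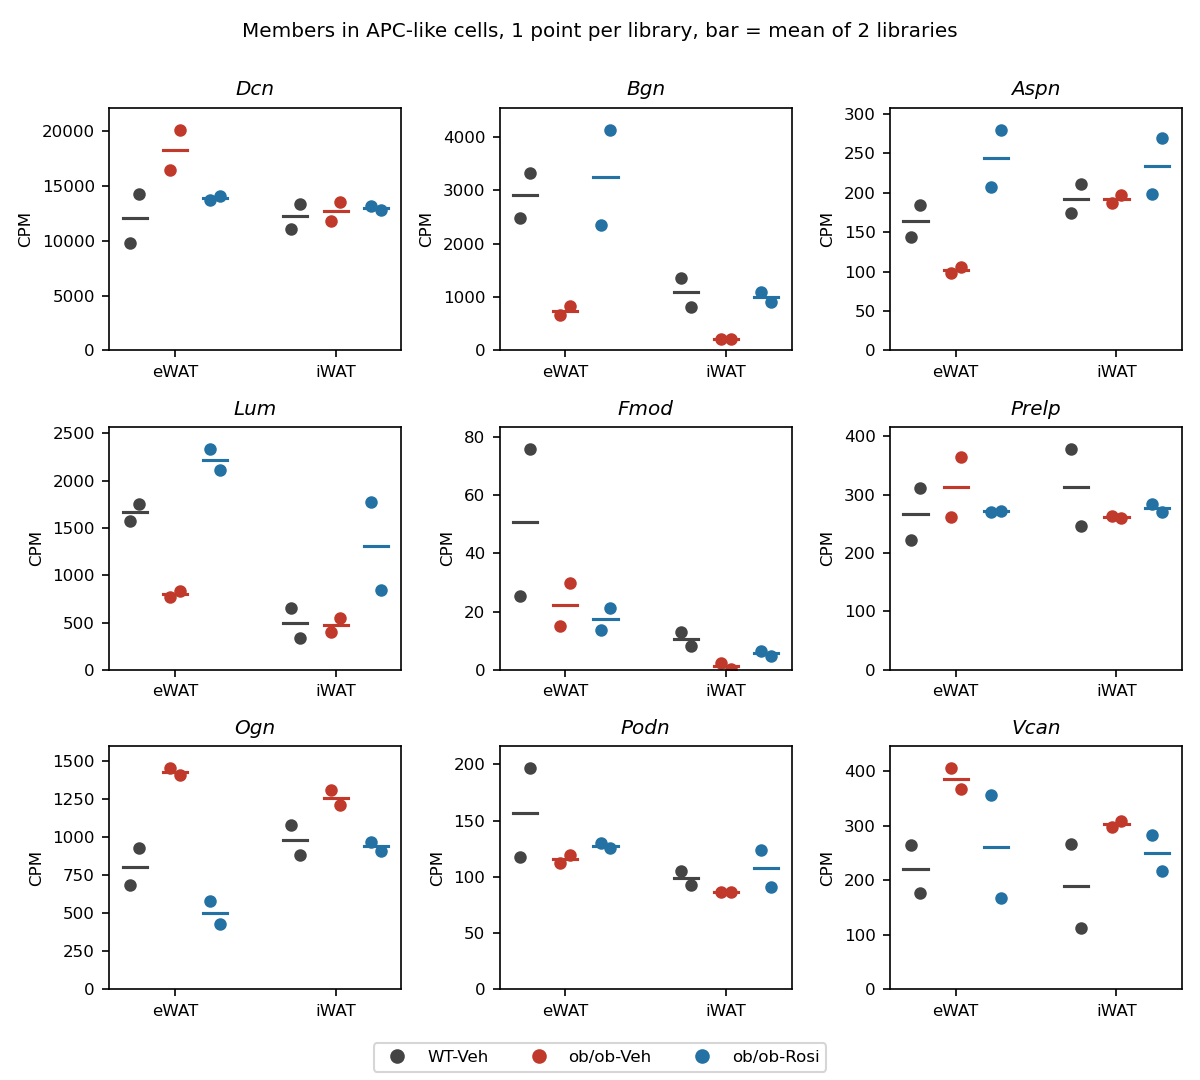
CPM of each member in APC-like cells, 1 point per library and a bar at the mean of the 2 libraries of a group, with 1 panel per gene and eWAT left of iWAT. Bgn of ob/ob-Veh lies at 666 and 825 CPM in eWAT and 216 and 211 CPM in iWAT, below every WT-Veh and ob/ob-Rosi library of that depot.

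In iWAT Bgn was the member that changed. It was at 1359 and 822 CPM in WT-Veh, 216 and 211 CPM in ob/ob-Veh and 1101 and 913 CPM in ob/ob-Rosi, and the obese vehicle libraries lay well below the rest. Bgn was 5.28-fold lower in ob/ob-Veh than in WT-Veh (log2 −2.40 ± 0.33 SE, adjusted p = 0.0372) and 4.99-fold higher after rosiglitazone (log2 2.32 ± 0.33 SE, adjusted p = 0.0256). That was 1 of 9 members in each contrast, beside 0.348% and 1.65% of all genes. The first call was lost without either ob/ob-Veh library and when cells were assigned to classes singly (adjusted p up to 0.557), with log2 changes from −2.67 to −1.99 over the 16 alternatives. The second was lost without any 1 of the 4 libraries of its groups and with cells assigned singly (up to 0.354), with log2 changes from 2.2 to 2.42. The makeup of the APC-like class differed as well. Preadipocyte-like cells, in which Bgn was highest among the tested subclasses, were 48.8% and 22.2% of iWAT APC-like cells in WT-Veh, 12.9% and 27.4% in ob/ob-Veh and 63.2% and 42.3% in ob/ob-Rosi. Fmo2-Myoc stromal-like cells were 5.02% and 10.8%, 0.272% and 0.467%, and 1.94% and 7.53%. These shares rest on the naming rule. Most ob/ob-Veh cells named preadipocyte-like came from a cluster that also held Fmo2-Myoc markers, as given with the subclasses below. Unnamed cells were 4.68% and 1.35%, 53.6% and 49.3%, and 1.59% and 0.794%, and their Bgn levels in ob/ob-Veh are given at the end. The part of these shares in the Bgn change of the whole class was not tested.

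Lum followed another course in iWAT, at 654 and 339.7 CPM in WT-Veh, 404 and 545 CPM in ob/ob-Veh and 1774 and 843 CPM in ob/ob-Rosi. The vehicle groups overlapped, and the treated libraries lay above both (log2 1.56 ± 0.44 SE against ob/ob-Veh, adjusted p = 0.103). Fmod was at 13.1 and 8.04 CPM in WT-Veh, 2.50 and 0.332 CPM in ob/ob-Veh and 6.52 and 4.89 CPM in ob/ob-Rosi, where the lowest value rested on 4 UMIs (log2 −2.77 against WT-Veh, adjusted p = 0.161, or 0.0399 with the replicate block, then 1.97, adjusted p = 0.166). None of the remaining 6 members was called, and the largest log2 change among them in an iWAT contrast was the 0.66 of Vcan in ob/ob-Veh. Dcn, for example, was between 11123 and 13530 CPM in all 6 libraries. Against WT-Veh, ob/ob-Rosi again gave 0 of 9 calls by edgeR and 0 by DESeq2 (0% of all genes), with 1 member, Lum, higher before adjustment (log2 1.44 ± 0.44 SE).

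Compared directly, the depots differed in the level of some members. In APC-like cells Bgn was lower in iWAT than in eWAT within each group, by a log2 difference of −1.40 ± 0.33 SE in WT-Veh (adjusted p = 0.028), −1.75 ± 0.34 SE in ob/ob-Veh (0.0094) and −1.60 ± 0.34 SE in ob/ob-Rosi (0.0173). Lum was 3.34-fold lower in iWAT in WT-Veh (log2 −1.74 ± 0.37 SE, adjusted p = 0.0162), and Fmod was 13.6-fold lower in ob/ob-Veh (log2 −3.77 ± 0.70 SE, adjusted p = 0.00749). The Fmod difference was −6.04 without iWAT ob/ob-Veh replicate 1 and −3.01 without replicate 2, and a Fmod UMI was in 0.242% and 0.11% of the APC-like cells of those libraries. The 7 mesothelial-like markers, of a class rich in Fmod, summed to 176 to 182 CPM in eWAT APC-like cells of ob/ob-Veh against 2.41 to 3.07 CPM in iWAT. They summed to 50.5 to 53.5 CPM against 6.46 to 13.1 CPM in WT-Veh and 35.9 to 56.3 CPM against 8.10 to 38.4 CPM in ob/ob-Rosi, and their part in the Fmod difference was not tested. Ogn in ob/ob-Rosi (0.99 ± 0.26 SE, adjusted p = 0.0556, or 0.0304 with the replicate block) and Aspn in ob/ob-Veh (0.96 ± 0.26 SE, adjusted p = 0.0515, or 0.0191) did not pass. Thus 2, 2 and 1 of 9 members were called in WT-Veh, in ob/ob-Veh and after rosiglitazone, beside 6.45%, 6.91% and 4.95% of all genes. Depot and the stage of filtering of the files cannot be told apart here. The makeup of the class differed too. Progenitor-like cells, which in iWAT held Bgn at 82.6 to 149 CPM, were 22.8% to 65.7% of iWAT and 7.33% to 36.2% of eWAT APC-like cells. In preadipocyte-like cells Bgn of ob/ob-Veh overlapped (iWAT 777 and 588 CPM, eWAT 682 and 829.5 CPM). It was lower in iWAT in WT-Veh (2306 and 2263, eWAT 2641 and 3536 CPM) and ob/ob-Rosi (1737 and 1679, eWAT 2403 and 4221 CPM). The part of the makeup was not tested. Whether eWAT and iWAT libraries came from the same mice is not given in the sources used here, and the fit treats the 12 libraries as independent.

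Leaving out libraries ended each of these depot calls at least once. Bgn lost its call in WT-Veh without iWAT WT-Veh replicate 2, either eWAT WT-Veh library or ob/ob-Veh replicate 2 of either depot (adjusted p up to 0.15). In ob/ob-Veh it was lost without eWAT ob/ob-Veh replicate 2 or either iWAT ob/ob-Veh library (up to 0.0937), and in ob/ob-Rosi without eWAT ob/ob-Rosi replicate 2 or either iWAT ob/ob-Rosi library (up to 0.175). Lum lost its call without iWAT WT-Veh replicate 2 or either eWAT WT-Veh library (up to 0.104), and Fmod without eWAT ob/ob-Veh replicate 2 (0.0556).

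The depot difference of each effect was tested in 1 fit over the 12 libraries, and edgeR called 0 of 9 members for the obese effect and 0 of 9 for rosiglitazone. Among all genes edgeR called 0.426% and 0.363%. DESeq2 called 1 member over both effects, with no share of all genes beside it. Before adjustment 0 members passed p under 0.05 for obesity, where Lum came nearest (1.02 ± 0.51 SE, adjusted p = 0.647). For rosiglitazone Ogn (1.13 ± 0.37 SE, adjusted p = 0.284) and Fmod (2.23 ± 0.91 SE, adjusted p = 0.473) were higher and Aspn lower (−0.93 ± 0.37 SE, adjusted p = 0.452) in iWAT before adjustment. For Bgn the differences between depots were −0.35 ± 0.46 SE and 0.15 ± 0.46 SE.

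**Figure D4:**
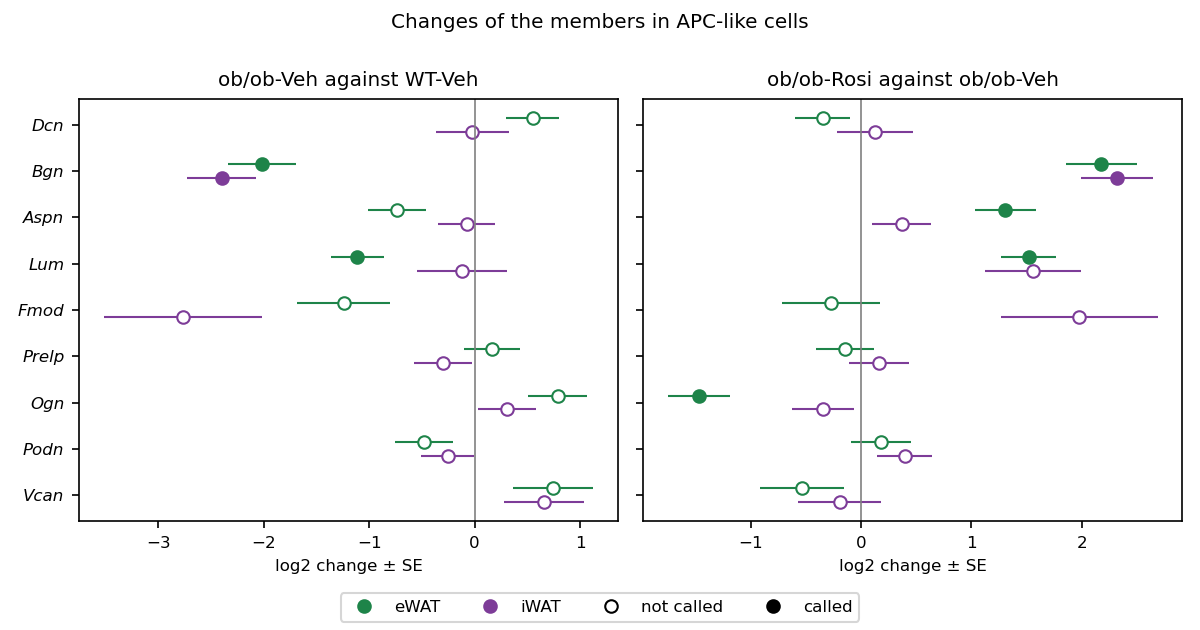
Log2 change of each member in APC-like cells with its standard error as a bar, for ob/ob-Veh against WT-Veh (left) and ob/ob-Rosi against ob/ob-Veh (right), with points for eWAT and iWAT and filled points for members called. Bgn is filled in both depots and both panels (−2.02 and −2.40, then 2.18 and 2.32), and no other iWAT point is filled.

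The eWAT subclasses gave more calls, with a caution on their makeup. Preadipocyte-like cells of WT-Veh and ob/ob-Rosi were mostly in clusters 0, 1, 3 and 9. Those of ob/ob-Veh were mostly in clusters 2, 4 and 5, led by Sult1e1 and Trf, by Ogt and Retnla, or by Socs3 and Il6. Their own markers go against the name, since 0, 0 and 1 preadipocyte-like markers stood above the rest there, while the Fmo2-Myoc list came first with 2, 1 and 2. They carry the name only because the mean level of its markers exceeded that of the progenitor-like list, the only other name weighed at that step, and in clusters 2 and 4 the mean level of the Fmo2-Myoc list was higher than that of either. The 10 leading genes of clusters 2 and 3 also hold 1 Fmo2-Myoc marker each (Inmt, Mgp) and none of the preadipocyte-like list. Cluster 0, the largest with 3608 cells and a median of 1354 UMIs, had preadipocyte-like markers above the rest, but its leading genes include Tyrobp, Lgals3 and Wfdc17, known from macrophages. It gave 2039 of the 3138 preadipocyte-like cells of WT-Veh replicate 1 and 1316 of the 2027 of ob/ob-Rosi replicate 1. At subclustering resolution 0.3 the ob/ob-Veh libraries had 12 and 6 preadipocyte-like cells, too few for a value. The preadipocyte-like contrasts below are thus contrasts between these sets of clusters and not within an established cell type. Progenitor-like cells of ob/ob-Veh were mostly in clusters 7 and 8 and those of the other groups in cluster 6. Cluster 6 had 7 progenitor-like markers above the rest but also 2 of the Fmo2-Myoc list. Its leading genes hold Fmo2 beside Pi16. Preadipocyte-like cells were 84.9% and 83% of eWAT APC-like cells in WT-Veh, 62.6% and 80.6% in ob/ob-Veh and 81.7% and 90.1% in ob/ob-Rosi. Unnamed cells made up 1.09% to 3.63% of APC-like cells in the 6 libraries. Different clusters are therefore set against each other in these contrasts, and their part in the changes was not tested.

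Between the sets of clusters named preadipocyte-like in eWAT, the differences were much like those of the whole APC-like class. Bgn was at 2641 and 3536 CPM in WT-Veh, 682 and 829.5 CPM in ob/ob-Veh and 2403 and 4221 CPM in ob/ob-Rosi (log2 −2.10, adjusted p = 0.00226, then 2.21, adjusted p = 0.00162), and both calls were kept under the 15 alternatives that gave a value. Aspn was at 135 and 179 CPM, 60.7 and 59.5 CPM, and 211 and 282 CPM in the same order (log2 −1.45, adjusted p = 0.00812, then 2.10, adjusted p = 0.00122). Neither gene's ob/ob-Veh libraries overlapped the others. The rise of Aspn was kept under the same 15 alternatives, and its fall was lost without WT-Veh replicate 2 or either ob/ob-Veh library (adjusted p up to 0.104). Lum fell and rose with them (log2 −0.89, adjusted p = 0.0441, then 1.29, adjusted p = 0.00793).

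Dcn and Ogn went the other way in those cells. Dcn was at 9769 and 13774 CPM in WT-Veh, 20503 and 22282 CPM in ob/ob-Veh and 13817 and 14086 CPM in ob/ob-Rosi, and rose in ob/ob-Veh (log2 0.80, adjusted p = 0.0494). Ogn was at 649 and 845 CPM, 1527 and 1404 CPM, and 554 and 419.6 CPM. It fell after rosiglitazone (log2 −1.52, adjusted p = 0.00592), while its difference in ob/ob-Veh did not pass (log2 0.92, adjusted p = 0.0572, or 0.0243 with the replicate block). In all, 4 of 9 members were called for obesity beside 8.06% of genes, and 4 of 9 for rosiglitazone beside 8.31%. The obese calls of Dcn and Lum were each lost without any 1 of the 4 libraries of their groups and with thinned cells (adjusted p up to 0.305 and 0.332). That of Dcn was also lost with relative log expression size factors and in cells without leukocyte UMIs, and that of Lum with cells assigned singly. Under rosiglitazone Lum lost its call without ob/ob-Veh replicate 2 (0.0992) and Ogn without ob/ob-Veh replicate 1 (0.0582).

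Between the sets of clusters named progenitor-like in eWAT, Bgn and Lum differed in the same way as in the whole APC-like class. Bgn was at 1813 and 2435 CPM in WT-Veh, 655 and 824 CPM in ob/ob-Veh and 2131 and 3485 CPM in ob/ob-Rosi (log2 −1.53, adjusted p = 0.00253, then 1.93, adjusted p = 0.000388). Lum was at 1615 and 1571 CPM, 444 and 528 CPM, and 2257 and 2134 CPM (log2 −1.72, adjusted p = 0.000403, then 2.18, adjusted p = 4.08e-05). The Lum calls and the rise of Bgn were kept under all 16 alternatives, and the fall of Bgn was lost without WT-Veh replicate 2 and with cells assigned singly (up to 0.0955).

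Fmod and Podn were called in these cells too, and those calls rested on how the subclass was drawn. Fmod, on 11 to 66 UMIs per library, was at 57.0 and 49.2 CPM, 1.63 and 2.87 CPM, and 43.5 and 35.0 CPM, and the obese vehicle libraries lay far below the rest (log2 −4.64, adjusted p = 1.12e-06, then 4.24, adjusted p = 3.73e-06). With cells assigned singly its log2 changes were −0.73 and 0.73 (adjusted p = 0.652 and 0.688), and the rise was also lost at subclustering resolution 0.3. Podn was at 110.1 and 138 CPM, 48.6 and 55.6 CPM, and 122 and 118 CPM (log2 −1.26, adjusted p = 0.00715, then 1.21, adjusted p = 0.0107). The Podn calls were lost with singly assigned cells, at subclustering resolution 0.3 and without either ob/ob-Veh library, and that for obesity without WT-Veh replicate 2 too (adjusted p up to 0.904 and 0.787). The obese log2 change of Podn then ran as high as 0.08. Ogn, at 1058 and 1377 CPM, 1364 and 1444 CPM, and 771 and 667 CPM, fell after rosiglitazone (log2 −0.96, adjusted p = 0.0351), a call lost under 8 of 16 alternatives, among them without any 1 library but ob/ob-Rosi replicate 1 (up to 0.265). In all 4 of 9 members were called for obesity and 5 of 9 for rosiglitazone, beside 6.91% and 6.14% of genes.

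In iWAT preadipocyte-like cells Bgn was at 2306 and 2263 CPM in WT-Veh, 777 and 588 CPM in ob/ob-Veh and 1737 and 1679 CPM in ob/ob-Rosi. The ob/ob-Veh libraries lay below the others, but neither difference passed (log2 −1.75 ± 0.32 SE, adjusted p = 0.0849, then 1.37 ± 0.31 SE, adjusted p = 0.0872). Both passed with the replicate block (adjusted p = 0.0121 and 0.023). edgeR called 0 of 9 members in either contrast, beside 0.158% and 0.0704% of genes, and DESeq2 called 2 and 1. Before adjustment 1 member was higher and 3 lower for obesity and 2 higher for rosiglitazone. Lum stood at 1125 and 785 CPM, 1560 and 1438 CPM, and 2795 and 1603 CPM. iWAT progenitor-like cells held Bgn at 82.6 to 149 CPM, and edgeR called 0 of 9 members in either contrast (0.729% and 2.06% of genes), as did DESeq2. Before adjustment there was 1 higher member for obesity and 2 lower for rosiglitazone. No share of all genes stands beside these DESeq2 and unadjusted counts of either subclass. Named ob/ob-Veh cells of this depot were mostly in clusters 4 and 5. Those of the remaining groups were mostly in clusters 1, 2, 3, 6, 7, 9 and 10. The leading genes of clusters 5 and 6 hold 1 Fmo2-Myoc marker each (Gdf10, Mgp). Cluster 5 had 4 Fmo2-Myoc markers above the rest beside 6 preadipocyte-like ones, with mean log2 levels of 0.83 and 0.82. It gave 420 of the 427 and 939 of the 997 preadipocyte-like cells of ob/ob-Veh. The iWAT preadipocyte-like contrasts thus set different clusters against each other, and their part in the differences was not tested. Of ob/ob-Veh APC-like cells 53.6% and 49.3% were unnamed.

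Collagen transcripts differed in the same eWAT cells. Col1a1, Col1a2 and Col3a1 together made up 20120 to 20530 CPM in WT-Veh, 9577 to 11090 CPM in ob/ob-Veh and 21160 to 21350 CPM in ob/ob-Rosi. Per 1000 UMIs of these collagens, Lum was at 78.3 and 85.3 in WT-Veh and 80.3 and 74.7 in ob/ob-Veh, which overlapped, and at 110.2 and 98.9 in ob/ob-Rosi, above the other 4 libraries. In progenitor-like cells Lum per 1000 collagen UMIs was lowest in ob/ob-Veh, at 57.3 and 63.9 against 146.5 and 157 in WT-Veh and 185 and 234 in ob/ob-Rosi. In all APC-like cells Bgn stood lower in ob/ob-Veh, at 69.6 and 74.4 against 124 and 162 in WT-Veh and 111 and 194 in ob/ob-Rosi. Dcn per 1000 collagen UMIs was 1720 and 1816 in ob/ob-Veh against 488 to 697 in the other 4 libraries, and Ogn 151 and 127 against 19.96 to 45.0. In iWAT APC-like cells Bgn was 66.9 and 66.8 in WT-Veh, 9.43 and 10.7 in ob/ob-Veh and 36.1 and 55.5 in ob/ob-Rosi per 1000 collagen UMIs.

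Transcripts of other lineages in APC-like cells differed between groups as well. The 8 LAM-like markers, all detected, summed to 1852 to 2185 CPM in WT-Veh, 387 to 546 CPM in ob/ob-Veh and 2008 to 2197 CPM in ob/ob-Rosi of eWAT. The 7 mesothelial-like markers summed to 50.5 to 53.5 CPM, 176 to 182 CPM and 35.9 to 56.3 CPM, with 5, 7 and 6 of them detected in both libraries. The 9 mural-like markers summed to 207 to 312 CPM, 87.7 to 130.2 CPM and 233 to 427 CPM, lower and then higher as Bgn was. Likewise the 7 EC-like markers summed to 30.3 to 32.6 CPM, 7.96 to 22.2 CPM and 39.6 to 40.2 CPM, and 7 markers of any macrophage to 736 to 1273 CPM, 168 to 243 CPM and 806 to 899 CPM, all of them detected in every library. In iWAT the EC-like markers summed to 50.7 to 79.7 CPM, 10.9 to 34.5 CPM and 78.4 to 87.4 CPM. Mural-like markers of iWAT overlapped between WT-Veh (30.06 to 42.48 CPM) and ob/ob-Veh (36.04 to 44.75 CPM). They lay higher in ob/ob-Rosi, at 64.83 to 66.23 CPM. The adipocyte markers of iWAT summed to 54.25 to 81.88 CPM, 12.41 to 17.27 CPM and 10.62 to 17.6 CPM. Those of any macrophage summed to 314.4 to 469.9 CPM, 545 to 670.9 CPM and 420.2 to 450.5 CPM. There the 7 PVM-like (perivascular macrophage) markers summed to 113 to 322 CPM, 541 to 559.9 CPM and 144 to 166 CPM. The iWAT LAM-like markers summed to 750.2 to 933 CPM, 432 to 543 CPM and 782 to 990.2 CPM, lower in ob/ob-Veh as Bgn was. In eWAT the 6 adipocyte markers summed to 7.64 to 13.9 CPM, 21.7 to 26.5 CPM and 2.79 to 3.52 CPM, highest in ob/ob-Veh where Ogn too had its highest levels. The part of these transcripts in the changes was not tested.

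In APC-like cells without a UMI of Ptprc, Cd52 or Laptm5, an alternative chosen after seeing the data, edgeR called Bgn in both contrasts of both depots, lower in ob/ob-Veh and higher after rosiglitazone.

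The other classes were read next, with 212 tests of members in 15 classes by depot. Of these, 42 were called, 24 higher and 18 lower, in 13 of the 15. In eWAT they were led by Bgn, which fell in ob/ob-Veh in 9 of 9 classes and rose after rosiglitazone in 8 of 9. In mesothelial-like cells it was at 471 and 729.8 CPM in WT-Veh, 94.7 and 101 CPM in ob/ob-Veh and 482 and 1183 CPM in ob/ob-Rosi (log2 −2.68, then 3.20). Endothelial (EC-like) cells had 298 and 229 CPM, 57.8 and 81.9 CPM, and 124 and 271 CPM (−2.00, then 1.57), and monocyte-like cells 237 and 175 CPM, 23.4 and 27.1 CPM, and 147 and 118 CPM (−3.18, then 2.48). In these 3 classes Bgn lay below the APC-like level of the same library, and classes share their libraries, so these are not separate replications. Whether the cells of these classes made the transcript was not tested. EC-like cells of eWAT ob/ob-Veh were mostly in 1 vascular cluster, with 165 and 405 cells there. That cluster held 4 to 15 cells of each other library, so different clusters are set against each other. Their part in the EC-like changes was not tested.

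The remaining eWAT Bgn calls were in immune classes. For obesity these were BC-like (B cells, log2 −2.42), DC-like (dendritic cells, −2.59), NKT-like (T and NK cells, −2.00), macrophage-like (−2.09), NPVM-like (non-perivascular macrophages, −2.39 in the edgeR fit) and PVM-like cells (−2.41). For rosiglitazone they were BC-like (2.90), DC-like (2.27), NKT-like (1.88), NPVM-like (1.85) and PVM-like cells (1.91). In macrophage-like cells the median change of all genes was itself −0.15 and 0.15, and in iWAT ILC2-like cells −0.25 and 0.16. Mesothelial-like cells kept both Bgn calls with each library left out, and monocyte-like and NPVM-like cells the obese call. The other obese calls were lost without ob/ob-Veh replicate 1 or WT-Veh replicate 1, and in NKT-like and macrophage-like cells also without ob/ob-Veh replicate 2 (adjusted p up to 0.31). The macrophage-like value rested on 39 cells and 1 Bgn UMI in ob/ob-Veh replicate 1 and was −3.98 without ob/ob-Veh replicate 2. Without WT-Veh replicate 1 the DC-like, NKT-like and PVM-like changes were −1.58, −1.21 and −1.66, and without ob/ob-Veh replicate 2 the DC-like change was −3.71, so that 1 library moved these values by over 1.5-fold. Under rosiglitazone Bgn lost its call without ob/ob-Veh replicate 1 in all classes but mesothelial-like and BC-like cells, without ob/ob-Veh replicate 2 in EC-like, NKT-like and PVM-like cells, without ob/ob-Rosi replicate 2 in those 3 and in BC-like and DC-like cells, and without ob/ob-Rosi replicate 1 in DC-like cells (up to 0.387). The EC-like change was 0.86 and the mesothelial-like change 2.45 without ob/ob-Rosi replicate 2, and the DC-like change was 1.57 without ob/ob-Veh replicate 1 and 3.37 without replicate 2.

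Ogn in eWAT EC-like cells was at 43.4 and 34.6 CPM, 174 and 105 CPM, and 25.5 and 10.0 CPM (log2 1.76, then −3.02), and the fall was kept with each library left out, at −3.68 without ob/ob-Rosi replicate 1 and −2.40 without replicate 2. Its rise was lost without ob/ob-Veh replicate 1 or either WT-Veh library (adjusted p up to 0.118). As for Bgn, the EC-like contrasts of Ogn and Dcn set different clusters against each other. Per 1000 UMIs of Col1a1, Col1a2 and Col3a1, EC-like Ogn was 28.2 and 43.6, 208.5 and 168, and 30.2 and 12.6. APC-like cells of the same libraries had 33.9 and 45.0, 151 and 127, and 27.4 and 19.96. Dcn was 479 and 713, 1668 and 1988, and 655 and 732.5 in EC-like cells. In APC-like cells it was 488 and 696.5, 1720 and 1816, and 648 and 659. The part of APC-like RNA in the EC-like changes was not tested. Dcn of EC-like cells rose and fell (0.92, then −1.15), calls lost without any 1 of the 4 libraries of the obese contrast (up to 0.284) and without ob/ob-Rosi replicate 2 or either ob/ob-Veh library after rosiglitazone (up to 0.181). Ogn also fell after rosiglitazone in NPVM-like cells (−1.62), lost without the same 3 libraries (up to 0.209).

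**Figure D5:**
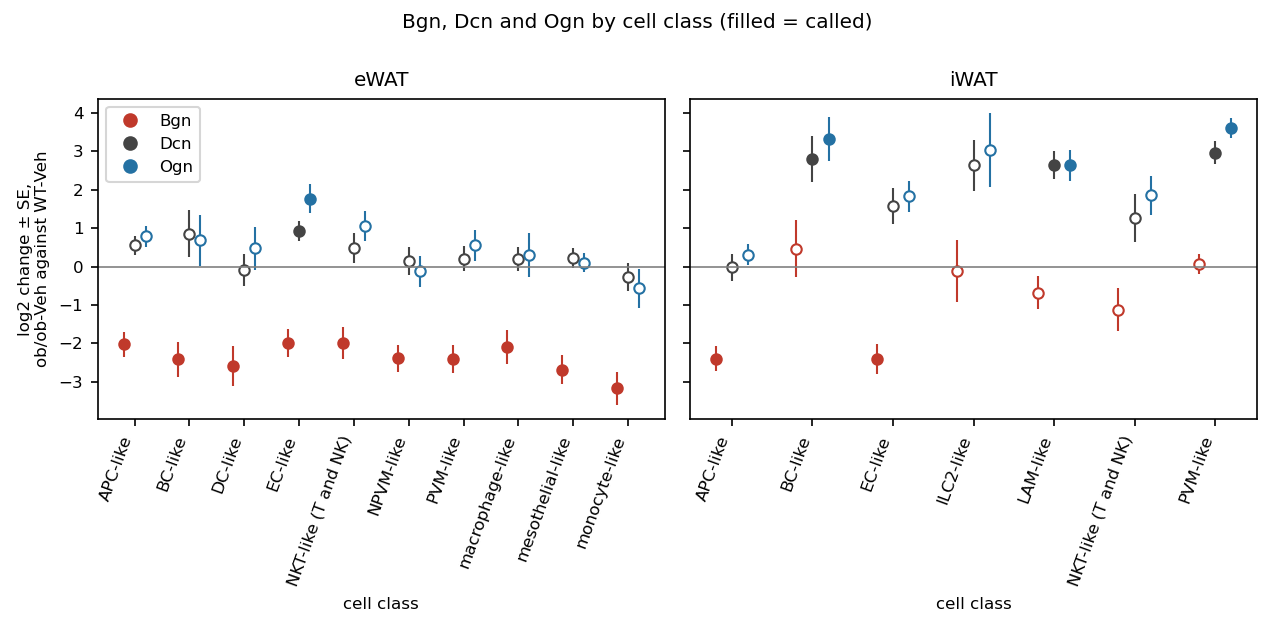
Log2 change of Bgn, Dcn and Ogn with its standard error in each tested cell class, for ob/ob-Veh against WT-Veh in eWAT (left) and iWAT (right), with filled points for changes that were called. In eWAT every Bgn point is filled and lies below 0, and in iWAT the filled Dcn and Ogn points, in BC-like, LAM-like and PVM-like cells, lie above 0.

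The iWAT classes showed another set. There 14 of the 15 obese calls were higher, in macrophages and B cells, and all 5 rosiglitazone calls were lower. In PVM-like cells Dcn was at 115 and 135 CPM in WT-Veh, 956 and 1247 CPM in ob/ob-Veh and 385 and 391.9 CPM in ob/ob-Rosi (log2 2.97, then −1.33). Ogn followed at 9.38 and 7.56 CPM, 113 and 115 CPM, and 19.6 and 22.8 CPM (3.61, then −2.25), and Vcan at 0.879 and 1.11 CPM, 18.4 and 19.4 CPM, and 3.48 and 4.56 CPM (3.98, then −2.04). The obese calls of these 3 genes were kept with each library left out, and those for rosiglitazone were lost without either ob/ob-Veh library, that of Dcn also without either ob/ob-Rosi library and that of Vcan without ob/ob-Rosi replicate 2 (adjusted p up to 0.221). Lum (2.47), Podn (2.68), Aspn (1.98) and Prelp (1.76) were also higher in ob/ob-Veh, each call lost without either ob/ob-Veh library and those of Podn and Prelp without WT-Veh replicate 2 too (up to 0.187), whereas Bgn, at 24.4 to 61.1 CPM, was not called.

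In iWAT LAM-like cells Dcn (log2 2.64), Lum (2.07), Ogn (2.64), Prelp (2.20) and Vcan (4.38) were higher in ob/ob-Veh, and all 5 calls were lost without ob/ob-Veh replicate 1, that of Prelp also without ob/ob-Veh or WT-Veh replicate 2 (adjusted p up to 0.771, for Lum, whose change was then 0.53). Vcan was then lower after rosiglitazone (−2.58). In BC-like cells Dcn (2.81) and Ogn (3.32) were higher and Ogn then lower (−2.41), and in EC-like cells Bgn was lower (−2.42). These 5 calls were lost without either ob/ob-Veh library, and that of Ogn after rosiglitazone and that of Bgn without either ob/ob-Rosi library as well (up to 0.453). Dcn of BC-like cells was at 1.76 and Bgn of EC-like cells at −3.16 without ob/ob-Veh replicate 2. The ob/ob-Veh libraries held few of these cells, 75 and 31 LAM-like, 20 and 53 BC-like and 108 and 629 EC-like, and a library had as few as 3 UMIs of Lum in LAM-like cells and of Ogn in BC-like cells. EC-like cells of iWAT ob/ob-Veh were mostly in 1 vascular cluster, with 67 and 479 cells there and 1 to 9 of each other library. Another cluster held 1964 cells of WT-Veh replicate 1, at a median of 1162 UMIs. The part of these clusters in the EC-like Bgn change was not tested. The 3 collagens also stood higher in the PVM-like libraries of ob/ob-Veh, at 1341 to 2001 CPM. They were at 140 to 217 CPM in WT-Veh and 549 to 704 CPM in ob/ob-Rosi. Per 1000 of those collagen UMIs, Dcn was 527 and 967, 478 and 930.0, and 547 and 714.5 in the 3 groups, which overlapped. Ogn was 43.1 and 54.0, 56.4 and 86, and 27.8 and 41.6. Bgn was 154 and 174, 18.4 and 22.3, and 86.8 and 97.4, lowest in ob/ob-Veh. BC-like cells held these collagens at 257 to 540, 3019 to 3239 and 1071 to 1178 CPM in the same order. LAM-like cells held 223 to 284, 755 to 1888 and 562 to 644 CPM. Per 1000 collagen UMIs, Dcn of BC-like cells was 661 and 1000, 489 and 1158, and 633 and 843, which overlapped. On that scale Ogn of BC-like cells (97.8 and 108) and Dcn of LAM-like cells (519 and 942) lay above WT-Veh in ob/ob-Veh. The part of stromal RNA in these calls was not tested.

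The number of calls in these classes depended on single libraries. It was 25 without iWAT ob/ob-Veh replicate 1 and 29 without replicate 2, 27 without eWAT ob/ob-Veh replicate 1, 57 without eWAT ob/ob-Rosi replicate 1 and 60 without iWAT WT-Veh replicate 1. As a background in eWAT, the obese and rosiglitazone contrasts called 0.275% and 0.413% of all genes in BC-like, 1.09% and 1.18% in DC-like, 7.32% and 5.25% in EC-like and 1.16% and 0.878% in macrophage-like cells. They called 3.51% and 2.16% in mesothelial-like, 1.02% and 1.48% in monocyte-like, 1.43% and 2.03% in NKT-like, 2.21% and 5.89% in NPVM-like and 3.63% and 2.71% in PVM-like cells. In iWAT the shares were 1.27% and 3.8% in BC-like, 0.264% and 0.214% in EC-like, 0.231% and 0% in ILC2-like, 9.17% and 10.5% in LAM-like, 0% and 0% in NKT-like and 5.52% and 10.4% in PVM-like cells.

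Genes that share the matrix with the members were read from fixed lists in APC-like cells, where 7.42% and 8% of all genes were called in eWAT and 0.348% and 1.65% in iWAT, for obesity and rosiglitazone. Of 9 further SLRPs 4 were tested in eWAT and 3 in iWAT, none called, and none of 7 hyalectans and link proteins, the kin of versican and its hyaluronan anchors, had enough counts to be tested. Among 18 other proteoglycans tested in eWAT, 2 were higher and 5 lower in ob/ob-Veh (median log2 −0.53) and 5 higher and 2 lower after rosiglitazone (median 0.65). The largest were Esm1 (endocan, log2 −6.20, then 6.11), the syndecan Sdc1 (−2.97, then 3.45) and Prg4 (lubricin, −2.97, then 2.62), against the glypican Gpc3 (1.72, then −2.64) and Tgfbr3 (betaglycan, 1.07, then −1.21). In iWAT Srgn (serglycin, 1.31) rose after rosiglitazone, 1 of 18 tested.

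Of 28 genes that build glycosaminoglycan chains, 4 were higher and 1 lower in eWAT of ob/ob-Veh, and 1 higher and 4 lower after rosiglitazone. The keratan sulfotransferase Chst1 (log2 3.59, then −4.36), the UDP-glucose dehydrogenase Ugdh (2.11, then −1.97) and the uronyl sulfotransferase Ust (1.63, then −1.76) stood against the chondroitin sulfotransferase Chst11 (−2.54, then 2.63). In iWAT Chst15 (1.48) rose and Ust (−1.95) fell after rosiglitazone, of 27. Of 9 hyaluronan genes in eWAT, Tnfaip6, which links hyaluronan to heavy chains, was higher (2.51, then −2.42) and Hmmr, a hyaluronan receptor of dividing cells, lower (−3.01, then 2.99). The synthase Has1 (−2.39) and Ptx3 (−2.88) fell after rosiglitazone.

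Of 15 genes on a list of matrix proteases and their cofactors, 2 were lower in eWAT of ob/ob-Veh, Mmp3 (log2 −4.39, then 5.03) and Pcolce (−1.90, then 2.23), which enhances procollagen C-proteinase and is no protease itself, and 1 higher, the aggrecanase Adamts1 (1.36, then −1.75). After rosiglitazone 4 were higher, with Adamts9 (1.82) among them, and 2 lower, Adamts1 and a second aggrecanase, Adamts5 (−1.42). Fibril collagens and crosslinking enzymes were the last matrix list. Of 15, 5 fell in ob/ob-Veh (median −0.80; Col1a1 −1.47, Col12a1 −1.24, Col6a1 −1.14) and 7 rose after rosiglitazone (median 0.82; Col6a3 1.4, Col6a1 1.38, Col3a1 1.35). In iWAT Col12a1 was the 1 called (−2.09, then 1.504). Of 13 receptors and ligands that SLRPs bind, Wisp1 (−1.75, then 2.30) and Tgfb1 (−1.16, then 1.32) fell and rose in eWAT, Tgfb2 rose (1.18) in ob/ob-Veh and Met, a decorin receptor, fell (−2.77) after rosiglitazone. In ob/ob-Rosi against WT-Veh edgeR called no gene of any list in either depot.

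Finally, the genes whose levels ran most like each member were read over 130 sums of a class in a library, among 9021 genes with a mean of at least 10 CPM. These sums share libraries and depth, so Pearson's r is a description. Dcn and Ogn ran together (r = 0.945), Dcn also with Clec3b (0.943) and Ccdc80 (0.928), and Ogn with Clec3b (0.935) and Efemp1 (0.921). Bgn ran with the collagen VI genes Col6a1 (0.838) and Col6a2 (0.796) and with Cygb (0.786), and Aspn with Thbs2 (0.782), Pcdh19 (0.758) and Cygb (0.758). Lum was closest to Mfap5 (0.871), Htra3 (0.836) and Clec3b (0.803), which include APC-like markers. Fmod ran with Nkain4 (0.875), Rspo1 (0.855) and Tmem151a (0.852). Prelp was closest to Lhfp (0.879), Lama4 (0.861) and Serping1 (0.859), Podn to Gata6 (0.796), Enpp2 (0.779) and Ildr2 (0.774), and Vcan to Ace (0.689), Tnfaip6 (0.680) and Fn1 (0.661).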

How the data were processed

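Single-cell libraries (10x Genomics 3′, v3.1 chemistry) had been made by the authors with bcl2fastq 2.19.1.403 and Cell Ranger 3.0.2 against mm10, per the labels and methods, and the deposited matrices hold raw UMI counts, one matrix per sample with no pooled replicates. All 12 libraries have a group in the labels, and 0 per-sample columns were left unused. Cells with 700 to 22000 UMIs, 200 to 6000 genes and under 25% mitochondrial UMIs were kept, the limits of the study's methods. Each depot was clustered with scanpy 1.11.5 and the Leiden method of python-igraph 0.11.9 on a shared-neighbour graph in double precision (2000 variable genes, 25 components, 20 neighbours, resolution 1), and APC-like cells again (15 components, resolution 0.6). Clusters were named from marker lists without members. Details of the naming were adjusted after clusters were seen and before groups were compared, so names may differ from those of the study. Clusters whose 10 leading genes held more markers of another class than of their own stayed unnamed, among APC-like cells only from 2 such markers on, and APC-like clusters without 3 markers above the rest took the name progenitor-like or preadipocyte-like, whichever list had the higher mean level, with the Fmo2-Myoc list left out of that step. Doublets stayed in and were removed in an alternative.

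UMIs were summed per class and library (at least 20 cells) and tested with edgeR 4.0.16 (TMM, filterByExpr, quasi-likelihood) within a depot, and over both depots for depot comparisons. SE is the log2 change over the root of F. The labels call the 2 libraries of a group biological replicates. An exact permutation test of 2 against 2 cannot go below p = 0.33, so p-values rest on the spread shared across genes, with 3 residual degrees of freedom per depot and 6 over both. Counts of eWAT APC-like cells, ob/ob-Veh against WT-Veh, were simulated for 12874 genes. There 92% of 100 genes changed 4-fold and 15% of 100 changed 2-fold were called. In iWAT (13266 genes) the shares were 87% and 7%. Beside these right calls, 12 of 12674 unchanged genes were called in eWAT and 12 of 13066 in iWAT. The changed genes left out those of the lowest levels, so recovery there was not measured. DESeq2 1.42.0, other scalings, no filter, a replicate block, thinned cells, doublet removal, other resolutions, singly assigned cells and each library left out were the alternatives. The members, lists, markers and tests were chosen with earlier results of these data known. Named genes were all 9 members, up to 3 called genes per direction of each list and the 3 genes most like each member. Promoters were RefSeq's (GRCm38.p6) and gene positions those of the annotation (GRCm38). No protein sequences were used here.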

Additional observations from a re-analysis of the deposited data

Results flagged for a closer look

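In 8 results the libraries of the 2 depots moved fully apart in opposite directions under the same contrast, with a call in at least 1 depot. The difference between depots was not tested for any of them. The rule was run on the members only, so no share of all genes stands beside this count. It is therefore not read as a result about the members. With 2 libraries a group, such separations also arise among genes that were not called.

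For ob/ob-Veh against WT-Veh, Lum was lower in eWAT and higher in iWAT in 3 classes. The log2 changes were −1.20 (adjusted p = 0.0768) in eWAT and 2.47 (0.00738) in iWAT PVM-like cells, −0.89 (0.0441) and 0.64 (0.397) in preadipocyte-like cells, and −1.72 (0.000403) and 0.60 (0.446) in progenitor-like cells, all by edgeR's quasi-likelihood test. Over all APC-like cells the depot difference of Lum was 1.02 ± 0.51 SE, with an adjusted p of 0.647 in the edgeR fit.

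In the same contrast Aspn of preadipocyte-like cells had a log2 change of −1.45 in eWAT (adjusted p = 0.00812, edgeR) and 0.34 in iWAT (0.585), and Bgn of BC-like cells had −2.42 (0.0412) and 0.47 (0.831). Podn of progenitor-like cells had −1.26 (adjusted p = 0.00715, edgeR) and 1.05 (0.227), and after rosiglitazone 1.21 (0.0107) and −0.95 (0.159). Ogn of preadipocyte-like cells had −1.52 in eWAT (adjusted p = 0.00592, edgeR) and 0.31 in iWAT (0.561) after rosiglitazone. The eWAT ob/ob-Veh cells named preadipocyte-like held at most 1 marker of that name above the rest, so those differences set unlike clusters side by side. The eWAT progenitor-like cells of ob/ob-Veh were also mostly in other clusters than those of the other groups. Both eWAT Podn calls were lost with cells assigned singly and at subclustering resolution 0.3. The obese log2 change of Podn ran as high as 0.08 over the alternatives.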

How the results depend on the processing

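Across alternatives no change of a member within a depot in APC-like cells was called in both directions. Of 864 such values 833 stayed on their side of the threshold, among them 35 that changed sign and were called in neither setting, 17 were no longer called and 14 were newly called. Of 990 values between depots 952 stayed, among them 47 such changes of sign, 15 were no longer called and 23 were newly called. With each library left out in turn, the number of members called was 1 to 2 for obesity in eWAT APC-like cells (2 with all libraries), 2 to 4 for rosiglitazone (4) and 0 to 0 for ob/ob-Rosi against WT-Veh. It was 2 to 4 and 3 to 5 in eWAT progenitor-like cells (4 and 5) and 1 to 5 and 3 to 4 in eWAT preadipocyte-like cells (4 and 4). In iWAT it was 0 to 2 in both contrasts of APC-like cells (1 and 1), 0 to 0 against WT-Veh, 0 to 0 and 0 to 1 in progenitor-like cells (0 and 0) and 0 to 3 and 0 to 2 in preadipocyte-like cells (0 and 0). Between depots it was 0 to 3 in WT-Veh, 0 to 3 in ob/ob-Veh and 0 to 2 in ob/ob-Rosi (2, 2 and 1), 0 to 0 for the difference of an effect, and 25 to 60 over the other classes (42).

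With no filter on low counts, 1 member was called in ob/ob-Rosi against WT-Veh in each depot, 2 and 3 in iWAT APC-like cells, 3 and 2 in iWAT preadipocyte-like cells, 2 between depots in ob/ob-Rosi and 1 for the depot difference of an effect. DESeq2 gave 2 and 2, 2 and 1, 2, and 1 in the last 4 of these. Assigning cells singly gave 1 and 2 in eWAT progenitor-like cells and 0 and 0 in iWAT APC-like cells. Subclustering resolution 0.3 gave 2 in eWAT progenitor-like cells for rosiglitazone, and thinned cells gave 2 in eWAT preadipocyte-like cells for obesity. No share of all genes stands beside these counts, so they are not read as results about the members. The cause was not tested, except that dropping a filter tests more genes and leaving out a library leaves fewer samples.

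The labels give every group replicates 1 and 2 with no shared litter or day, and deviations of same-numbered libraries in APC-like cells correlated at 0.436, 0.315 and 0.259 in eWAT and at 0.0232, 0.729 and 0.00154 in iWAT, above 0.1 throughout in eWAT and in 1 of 3 cases in iWAT. Each contrast has only 2 numbered pairs, so the numbers were not taken as pairs in the fits reported. In APC-like cells and their progenitor-like and preadipocyte-like subclasses the replicate block ended no call of a member and added some in both depots, and it was not run for the other classes. In eWAT these were Fmod for obesity in APC-like cells (adjusted p = 0.00908 by edgeR), and in preadipocyte-like cells Ogn for obesity (0.0243) and Fmod for rosiglitazone (0.00832) and against WT-Veh (0.0337). In iWAT Fmod was added for obesity in APC-like cells (0.0399, count 2), and Fmod and Bgn in both contrasts of preadipocyte-like cells (0.03 and 0.0121, then 0.0334 and 0.023, counts 2 and 2). Between depots Fmod was added in WT-Veh (0.0393), Aspn in ob/ob-Veh (0.0191) and Ogn in ob/ob-Rosi (0.0304, count 2). Subclustering resolution 0.3 gave no value in eWAT preadipocyte-like cells, with 12 and 6 cells in ob/ob-Veh. Depth limits Fmod in iWAT most, with 4 to 122 UMIs per library in APC-like cells.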

Other observations

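APC-like cells that stayed unnamed on reclustering belong to no subclass comparison. In iWAT ob/ob-Veh there were 1771 and 1793 such cells, most in a cluster led by Il1r2, Retnla, Mrc1 and F13a1. They held Dcn at 10040 and 12870 CPM, Ogn at 1030 and 1182 CPM, Lum at 294 and 263 CPM, Bgn at 135 and 62.6 CPM and Fmod at 0 and 0 CPM. Their Bgn level lay within or near the 82.6 to 149 CPM of iWAT progenitor-like cells.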
